A study of Homo sapiens with 12 samples.

Results

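The response to all-trans retinoic acid (ATRA) in U937 cells carrying an EVI1 expression vector was followed across 19775 annotated genes, using 6 of the 12 arrays of the series. The 3 EVI1 ATRA arrays came from EVI1 cells given 1 µM ATRA for 24 h, and the 3 EVI1 DMSO arrays from EVI1 cells given the same volume of the solvent DMSO. U937 is an established human leukaemic cell line of monocyte-like character, and EVI1 is a zinc finger transcription factor made from the MECOM gene. The other 6 arrays came from U937 cells with the empty vector, 3 vector ATRA and 3 vector DMSO, and were used to estimate the spread and to test whether the ATRA effects differed. All cells were transduced. Whether a line was 1 clone or a pool, and which promoter drove EVI1, is not given in the sources used here. The series states that the 3 replicates of each group were biological, and arrays carry replicate numbers 1, 2 and 3 in every group. Wherever values of 3 arrays are listed, they stand in the order of these numbers.

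Signals are log2 values made with RMA (robust multi-array average), so that a difference of 1 is a 2-fold change. Of the 19775 genes, 14080 reached a log2 signal of 5 on at least 3 of the 12 arrays and were tested, and 5695 did not. The array medians lay between 5.29 and 5.35 and the lower quartiles between 3.83 and 3.91, and signals at or below that quartile understate a fold change. Array signals measure RNA in bulk, so fewer cells of a type and less RNA per cell cannot be told apart. The 10 U937 line markers on the array reached the limit of 5 on all 3 arrays for 10 genes in EVI1 ATRA and 9 in EVI1 DMSO. Of 81 markers of erythroid, megakaryocytic, lymphoid, epithelial, stromal and endothelial cells and of eosinophils, basophils and mast cells, 48 could be tested and 2 were called higher with ATRA, CD79B (0.55, called in 2 of the 6 fits that leave out 1 EVI1 array) and MUC1 (0.56). The mean over the 81 was 5.05 to 5.13 on the EVI1 ATRA arrays and 5.06 to 5.17 on the EVI1 DMSO arrays. By the measure used for the line markers, 36 of the 81 reached the limit on all 3 arrays in EVI1 ATRA and 37 in EVI1 DMSO. The highest single marker averaged 8.15 and 8.1 in these groups, so not all of the 81 lay near background. The 5 MECOM probe sets read 2.61 to 3.60 on all arrays and none was called between EVI1 and vector cells, which leaves the EVI1 label unchecked by these data, and groups are named as labelled.

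ATRA enters the nucleus and binds retinoic acid receptors (RARA, RARB, RARG), which sit on DNA as pairs with retinoid X receptors and exchange corepressors for coactivators when the ligand arrives. Among their direct targets are genes that break down or store retinoids, which limits the signal. In myeloid leukaemic cells the hormone is best known for slowing division and driving maturation, in which surface receptors, phagocyte enzymes and antimicrobial genes appear and the growth programme of MYC recedes.

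ATRA raised and lowered similar numbers of genes, and the risen genes had a longer tail of large changes. Between EVI1 ATRA and EVI1 DMSO, 2127 of the 14080 tested genes (15.1%) passed limma at an adjusted p under 0.05. Of these, 1049 were higher (7.45% of the genes tested) and 1078 lower (7.66%). At least a 2-fold change was reached by 329 of the risen genes (2.34% of all tested) and 114 of the fallen (0.81%), that is by 31.4% of the risen and 10.6% of the fallen. The median size of the difference was 0.72 among the risen genes (quartiles 0.52 and 1.13) and 0.63 among the fallen (quartiles 0.50 and 0.81). A difference of 3 or more was found for 25 risen genes and 0 fallen ones. The replicate numbers pair the arrays, and with the number as a block 5023 genes passed (35.7%), 2298 higher (16.3%) and 2725 lower (19.4%), among them all 2127. Counts of list members below are to be read against these shares over all genes. They are 7.45% higher and 7.66% lower without the block, and 16.3% and 19.4% with it.

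Single arrays weighed on these counts, in fits that take no account of the pairs and lose 1 member of a pair with each array left out. Without EVI1 ATRA 2, ATRA 3, DMSO 1 or DMSO 2 in turn, the risen genes numbered 614, 476, 516 and 554, and the fallen 532, 421, 526 and 513. Without EVI1 ATRA 1 there were 1429 risen and 1795 fallen genes, and without EVI1 DMSO 3 there were 1039 and 939. In all 6 of these fits 412 risen and 370 fallen genes were called, and a gene is described as called in every fit where it is one of them. Of the 342 called genes that the naming rules picked, 157 were not called in at least 1 of these fits, and all 157 passed with the replicate block and every array (adjusted p up to 0.0246). The arrays of 1 number tended to lie on the same side of their groups. Among the 1049 risen genes, EVI1 ATRA 1 was the lowest ATRA array for 773 (73.7%, against 34.1% of all tested genes), and EVI1 DMSO 3 was the highest DMSO array for 743 (70.8%, against 27.5%). Among the 1078 fallen genes, EVI1 ATRA 1 was the highest ATRA array for 823 (76.3%, against 43.2%). Replicate 3 thus tended to lie further in the direction of the ATRA response under both agents. The differences within a number were alike, with a median over the risen genes of 0.68, 0.76 and 0.74 at numbers 1, 2 and 3, and over the fallen genes of -0.52, -0.68 and -0.72.

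**Figure D1:**
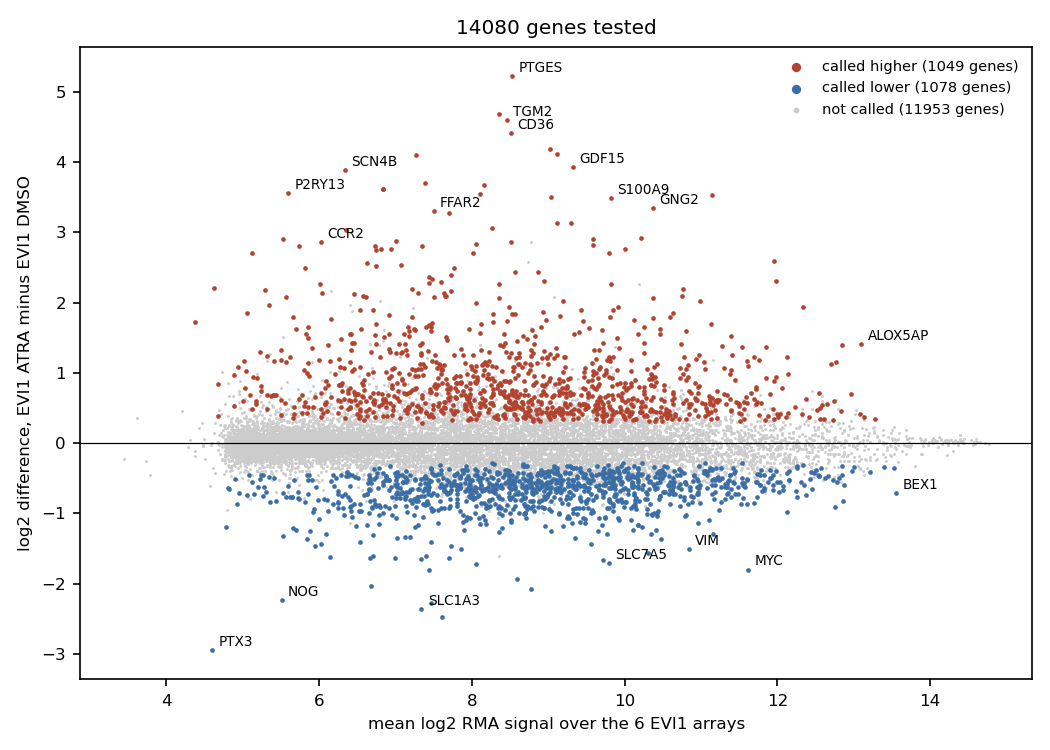
Log2 difference of EVI1 ATRA minus EVI1 DMSO (vertical axis) against the mean log2 RMA signal over the 6 EVI1 arrays (horizontal axis) for each of 14080 tested genes, with called genes in colour and named examples. The 1049 called rises reach a difference of 5.23 (PTGES), while the 1078 called falls end at -2.95 (PTX3).

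The largest rise was that of PTGES, the synthase that turns prostaglandin H into prostaglandin E. It read 9.35, 11.63 and 12.45 in EVI1 ATRA against 5.09, 5.98 and 6.68 in EVI1 DMSO, a 37.4-fold rise (log2 difference 5.23 ± 0.72 SE, n = 3 arrays a group, adjusted p = 0.00145). All 3 ATRA arrays were far above all 3 DMSO arrays, and the spread within ATRA was wide. TGM2, tissue transglutaminase and a long-known retinoid target, read 9.36, 10.79 and 12.15 in EVI1 ATRA against 5.47, 5.54 and 7.48 in EVI1 DMSO (4.60 ± 0.74, adjusted p = 0.00268). CD36, a scavenger receptor for oxidised lipoproteins and fatty acids, read 9.63, 10.98 and 11.54 against 5.17, 5.55 and 8.20 (4.41 ± 0.72, adjusted p = 0.00289). In both, DMSO replicate 3 stood well above the other DMSO arrays and still below every ATRA array.

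Among the 25 largest rises whose arrays did not overlap, several encode proteins that are not textbook markers of myeloid maturation. SCN4B, an accessory subunit of voltage-gated sodium channels, read 7.26, 8.46 and 9.12 in EVI1 ATRA against 4.19, 3.76 and 5.22 in EVI1 DMSO (3.89 ± 0.47, adjusted p = 0.000977). KCNE1, an accessory subunit of a slow potassium channel of the heart, rose by 3.70 ± 0.50. PALLD, an actin-bundling scaffold, rose by 4.12 ± 0.65, and the chemokine scavenger ACKR3 by 4.10 ± 0.72. GNG2, a gamma subunit of trimeric G proteins, read 11.66, 12.32 and 12.15 in EVI1 ATRA against 7.99, 8.53 and 9.58 in EVI1 DMSO, a 10.1-fold rise (3.34), while its other 3 probe sets differed by 1.5, 1.18 and 0.43. P2RY13, a receptor for ADP, read 5.77, 7.68 and 8.65 in EVI1 ATRA against 3.14, 3.51 and 4.78 in EVI1 DMSO (3.56 ± 0.60), and FFAR2, a receptor for short-chain fatty acids, 8.33, 9.01 and 10.11 against 5.78, 5.55 and 6.22 (3.30 ± 0.35). Both groups were apart for each of these genes. For P2RY13, 2 DMSO arrays lay below the array lower quartile, where the size of a rise is compressed. All of the genes in this paragraph were called in every fit that left out 1 EVI1 array.

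The rest of the 25 were LILRA5 (4.69), DHRS3 (4.18), HNRNPLL (3.68), NAPSB (3.62), MS4A4A (3.54), NCF1 (3.53), CD1D (3.50), PLAAT4 (3.28), ID1 (3.14), CD38 (3.14), S100A8 (3.06), HIC1 (3.03), FGR (2.92), ZNF595 (2.91) and HBEGF (2.90). In all 25, EVI1 DMSO 3 was the highest DMSO array, and in 23 EVI1 ATRA 3 was the highest ATRA array. DHRS3 and HNRNPLL lost their calls without EVI1 ATRA 2, ATRA 3, DMSO 1 or DMSO 2 (adjusted p from 0.0543 to 0.0716 and from 0.0737 to 0.105). NAPSB, CD38 and HIC1 lost theirs without EVI1 ATRA 3, DMSO 1 or DMSO 2 (0.0759 to 0.0845, 0.0541 to 0.0601 and 0.0604 to 0.0651), and MS4A4A without EVI1 ATRA 2, ATRA 3 or DMSO 1 (0.0663 to 0.0788). CD38, an ectoenzyme used as a marker of the retinoid response, read 10.69, 10.57 and 10.80 in EVI1 ATRA against 6.44, 6.76 and 9.45 in EVI1 DMSO, a narrow range with ATRA and a wide one without. Its difference was 4.25 at number 1 and 1.35 at number 3. For several of the 25 the probe sets of a gene differed in size. A second probe set of PTGES rose by 2.75 and one of KCNE1 by 1.33. Of the other probe sets of TGM2, LILRA5 and HBEGF, those with the smallest differences gave 0.96, 0.19 and -0.14, and the second probe set of HIC1 gave 0.23.

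**Figure D2:**
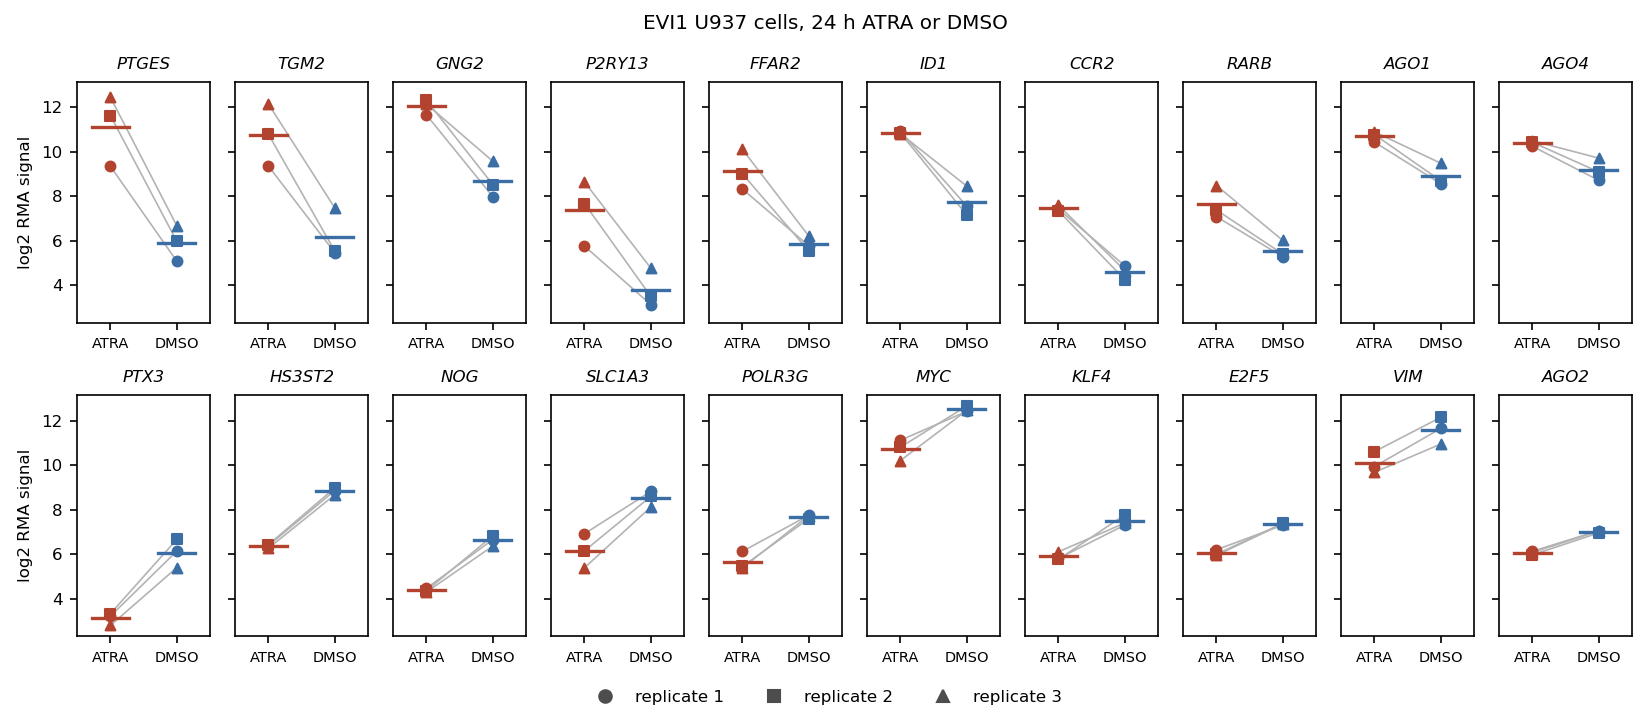
Log2 RMA signal (vertical axis) of 20 named genes in each EVI1 ATRA array (left in each panel) and each EVI1 DMSO array (right), with grey lines joining arrays of 1 replicate number and bars at the group means. The ATRA and DMSO arrays do not overlap in any panel. The top row holds genes that rose and the bottom row genes that fell.

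The 3 smallest adjusted p values belonged to genes that fell. HS3ST2, which adds sulfate to heparan sulfate chains, read 6.40, 6.44 and 6.28 in EVI1 ATRA against 8.87, 8.99 and 8.68 in EVI1 DMSO (-2.47 ± 0.17, adjusted p = 0.000103, the smallest in the comparison). NOG, the BMP antagonist noggin, read 4.48, 4.37 and 4.31 in EVI1 ATRA against 6.67, 6.84 and 6.38 in EVI1 DMSO (-2.24 ± 0.17, adjusted p = 0.000125). E2F5, a member of the E2F family that pairs with the p130 pocket protein, read 6.21, 6.01 and 5.96 against 7.32, 7.40 and 7.38 (-1.31 ± 0.10, adjusted p = 0.000146). AGO2 (-0.96), KLF4 (-1.60), RIOX2 (-1.06), TMEM231 (-1.0), METRNL (-1.51) and PTX3 (-2.95) fell, and CCR2 (2.86) and the long non-coding RNA LINC00920 (1.54) rose, all at an adjusted p of 0.000305. CCR2, the receptor of monocytes for CCL2, read 7.43, 7.35 and 7.60 in EVI1 ATRA against 4.88, 4.26 and 4.67 in EVI1 DMSO. It was the risen gene with the smallest adjusted p alongside LINC00920, and DMSO replicate 3 was not its highest DMSO array.

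PTX3, a secreted pentraxin of innate immunity, had the largest fall, with 3.23, 3.34 and 2.81 in EVI1 ATRA against 6.15, 6.68 and 5.41 in EVI1 DMSO. All of its ATRA values were under the quartile given above, where a difference such as -2.95 may be understated. Other secreted or signalling factors among the 25 largest falls were CCN3 (-2.07), the sphingosine-1-phosphate receptor S1PR3 (-2.28, against 0.04 for its other probe set), FJX1 (-1.62), METRNL, SHISA2 (-1.47) and the mTOR inhibitor DEPTOR (-1.61). SLC1A3, a glutamate and aspartate transporter, read 6.93, 6.16 and 5.40 in EVI1 ATRA against 8.83, 8.61 and 8.13 in EVI1 DMSO, a 5.13-fold fall. The intermediate filament VIM read 9.95, 10.62 and 9.69 against 11.66, 12.16 and 10.96, a difference of -1.51 ± 0.34, and lost its call without EVI1 ATRA 3 or DMSO 2 (adjusted p = 0.064 and 0.0563). The remaining members of the 25 were TENT5C (-1.93), PHACTR3 (-1.81), CAB39L (-1.72), CST7 (-1.67), TRIM71 (-1.65), SDCBP (-1.64), CEP70 (-1.64), INPP5A (-1.63) and EBF3 (-1.46), besides POLR3G, MYC, SLC7A5, KLF4, PSAT1, HS3ST2 and NOG, which are described with their pathways or above. TENT5C lost its call without EVI1 ATRA 3, DMSO 1 or DMSO 2 (0.0524 to 0.0638), and SDCBP without EVI1 ATRA 3 or DMSO 2 (0.0756 and 0.0625).

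Retinoid genes were represented by the receptor RARB and by DHRS3, and most others did not pass in the fit without the block. RARB, itself a target of its own pathway, read 7.09, 7.39 and 8.49 in EVI1 ATRA against 5.29, 5.41 and 6.02 in EVI1 DMSO, a 4.24-fold rise (2.08 ± 0.34, adjusted p = 0.00282) called in every fit. The other receptors did not pass. RARA differed by 0.41 ± 0.16 (adjusted p = 0.104), RARG by -0.07, RXRA by -0.32 (0.288, or 0.014 with the replicate block) and RXRB by -0.09. DHRS3, which reduces retinaldehyde to retinol, read 10.93, 11.19 and 11.21 in EVI1 ATRA against 5.35, 5.73 and 9.70 in EVI1 DMSO. The difference was 5.58 at number 1, 5.46 at number 2 and 1.51 at number 3. RDH10, which makes retinaldehyde, fell by 0.75 ± 0.17 and lost its call only without EVI1 DMSO 2 (adjusted p = 0.0551).

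CYP26A1, the cytochrome that degrades ATRA and the standard target gene, read 5.86, 5.98 and 8.53 in EVI1 ATRA against 5.34, 5.41 and 5.45 in EVI1 DMSO. Its difference was 0.52, 0.57 and 3.08 at numbers 1, 2 and 3, so it rose at every number and most at number 3. The arrays did not overlap. The rise of 1.39 ± 0.52 did not pass in limma (adjusted p = 0.0939, or 0.0416 with the replicate block). In the retinoid metabolism list, 16 of 27 genes could be tested, of which 1 rose and 1 fell, with a median of -0.02, as over all genes. With the block 5 rose and 2 fell, and CYP26A1 and DHRS9 were among those that rose. DHRS9 differed by 0.96 ± 0.52 (limma adjusted p = 0.253, or 0.0336 with the block). In the fits without the block, the count of risen members was 4 without EVI1 ATRA 1, and 0 without ATRA 2, DMSO 1 or DMSO 2. With the block the list of nuclear receptors and cofactors had 9 risen and 5 fallen of 30, against 16.3% and 19.4% of all genes. Without the block 4 rose (13.3% of those tested) and 0 fell, or 8 rose without EVI1 ATRA 1 and 2 without ATRA 2. Besides RARB these were NR1H3, the oxysterol receptor LXR alpha (7.49, 8.66 and 8.55 in EVI1 ATRA against 6.14, 6.69 and 6.89 in EVI1 DMSO, 1.66 ± 0.27), PPARA (0.70) and PPARD (0.54). PPARA lost its call without EVI1 ATRA 2, ATRA 3, DMSO 1 or DMSO 2 (0.0543 to 0.126) and PPARD without EVI1 ATRA 2 (0.0514).

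The promoter windows of RefSeq ran from 250 bases before to 50 bases after each start on GRCh38.p14. They were searched on both strands for the retinoic acid response elements DR1, DR2 and DR5 by exact match to the consensus. DR5 was found in 2 of 882 risen genes (0.227%), 0 of 896 fallen and 7 of all 11234 tested genes with a window (0.0623%). The 2 genes were RARB and BATF2, a basic leucine zipper factor that rose to 8.01, 8.45 and 8.44 in EVI1 ATRA, against 5.62, 5.97 and 6.75 in EVI1 DMSO. The stretches are shown because they hold the element of the ligand's own receptors close to the start of called genes. Capitals mark the element, and each stretch reads in the direction of the gene.
RARB, chr3:25428195-25428241, + strand, element 53 to 37 bases before the start: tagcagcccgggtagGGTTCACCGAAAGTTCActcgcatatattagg
BATF2, chr11:64990278-64990321, - strand, element 29 to 13 bases before the start: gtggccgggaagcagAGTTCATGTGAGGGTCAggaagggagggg
A window without an exact match says nothing of elements elsewhere. DR1 was found in 1 of 882 risen genes (0.113%) and 17 of all 11234 tested (0.151%). DR2 was found in 0 risen genes and 4 of all tested (0.0356%). Neither DR1 nor DR2 was thus more frequent among risen genes. The single half-site AGGTCA was no more frequent among risen genes (9.52%) than among all tested (10.4%).

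Of 39 tested myeloid transcription factors 8 were higher (20.5%, against 7.45% of all genes) and 4 lower (10.3%, against 7.66%), or 8 and 5 with the block. CEBPE, a regulator of late granulocyte maturation, read 8.58, 8.99 and 9.58 in EVI1 ATRA against 6.94, 6.68 and 7.53 in EVI1 DMSO (2.00 ± 0.25, adjusted p = 0.000998). CEBPB (1.94), RUNX2 (1.52), BCL6 (1.23) and HIC1 rose as well, while CEBPA differed by -0.16 and did not pass. ID1, an inhibitor of helix-loop-helix factors, read 10.93, 10.85 and 10.82 in EVI1 ATRA against 7.56, 7.16 and 8.46 in EVI1 DMSO, an 8.82-fold rise with hardly any spread under ATRA. EGR3, an immediate early factor, read 6.67, 8.45 and 10.79 in EVI1 ATRA against 3.76, 3.84 and 7.45 in EVI1 DMSO. Its arrays overlapped, since DMSO replicate 3 exceeded ATRA replicate 1. DMSO replicates 1 and 2 lay under the lower quartile of their arrays, where the size of a rise is compressed. EGR3 and EGR1 (2.39) lost their calls without EVI1 ATRA 3, DMSO 1 or DMSO 2, and EGR3 also without ATRA 2 (adjusted p 0.0764 to 0.131 and 0.0621 to 0.0762). The factors that fell, KLF4 (-1.60), LYL1 (-1.10), MYB (-0.76) and LMO2 (-0.72), were all called in every fit. KLF4 read 5.82, 5.78 and 6.12 in EVI1 ATRA against 7.32, 7.78 and 7.41 in EVI1 DMSO, and LYL1, MYB and LMO2 are factors of haematopoietic progenitors. Leaving out EVI1 ATRA 3, DMSO 1 or DMSO 2 left 4 risen factors.

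Phagocyte surface and effector genes rose together, and the 3 lists that follow had 0 fallen members. In the list of monocyte and macrophage surface genes 16 of 24 tested members (66.7%) rose, against 7.45% of all genes, with a median of 0.92. They included CD36, CCR2, CD300A (2.82), the Fc receptor gamma chain FCER1G (1.94), the signalling adaptor TYROBP (1.90) and the complement receptor VSIG4 (2.80). VSIG4 read 5.86, 9.19 and 9.34 in EVI1 ATRA against 4.93, 5.04 and 6.02 in EVI1 DMSO, so that ATRA replicate 1 lay within the DMSO range, and it lost its call without any 1 of EVI1 ATRA 2, ATRA 3, DMSO 1 or DMSO 2 (0.0789 to 0.116). TYROBP lost its call without EVI1 ATRA 2, ATRA 3 or DMSO 1 (0.0536 to 0.0695). The list count was 8 without EVI1 ATRA 3 or DMSO 1 and 9 without ATRA 2 or DMSO 2. CD14, the classical monocyte marker, stayed below the signal limit in both groups (4.76, 4.58 and 4.05 in EVI1 ATRA against 4.59, 4.37 and 4.18 in EVI1 DMSO) and was not tested. The same held for CD163, MRC1, MSR1 and FCGR1A. With CD14 they were the 5 list members on the array that the share of risen genes leaves out. THBD, thrombomodulin, read 5.45, 5.13 and 5.17 in EVI1 ATRA against 3.51, 3.34 and 3.71 in EVI1 DMSO, a rise of 1.73 ± 0.43 that was lost without EVI1 ATRA 2, ATRA 3, DMSO 1 or DMSO 2 (0.0526 to 0.068). All 3 of its DMSO values were under the array lower quartile, where the size of a rise is compressed.

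Granulocytic maturation genes rose in 8 of 22 tested cases (36.4%, against 7.45% of all genes), or 12 with the block, with a median of 0.52. Another 9 members on the array did not reach the signal limit and were not tested, among them CEACAM8, OLFM4, TCN1 and ARG1. S100A8, a calcium-binding antimicrobial protein, read 8.73, 9.57 and 11.10 in EVI1 ATRA against 5.94, 5.95 and 8.33 in EVI1 DMSO. Its partner S100A9 read 10.47, 11.53 and 12.71 against 6.81, 6.88 and 10.54 (3.49 ± 0.83). For S100A9 DMSO replicate 3 was just above ATRA replicate 1, and it lost its call without EVI1 ATRA 2, ATRA 3, DMSO 1 or DMSO 2 (0.0506 to 0.0794). ITGAM, the CD11b integrin chain, read 7.46, 8.99 and 9.79 against 5.24, 5.68 and 6.93 (2.80 ± 0.57, adjusted p = 0.00859). FPR2 (1.43) and CSF3R (1.32), receptors for formyl peptides and for G-CSF, rose in every fit. In the phagocyte NADPH oxidase list 5 of 9 rose (55.6%, against 7.45% of all genes): NCF1 (3.53), CYBB (1.78), CYBA (0.52), VAV1 (0.41) and RAC2 (0.37). NCF1, the p47 organiser subunit, read 12.79, 12.83 and 13.08 in EVI1 ATRA against 8.41, 8.28 and 11.42 in EVI1 DMSO, and which of its near-identical genomic copies the probe set reads is uncertain. CYBB was lost without the same 4 arrays that S100A9 was (0.118 to 0.196), and VAV1 and RAC2 were called in 1 and 2 of the 6 fits (adjusted p up to 0.147 and 0.142). The oxidase count was 2 without EVI1 ATRA 2, ATRA 3, DMSO 1 or DMSO 2.

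Other groups of leukocyte surface and signalling genes differed in how many members were called. Leukocyte immunoglobulin-like receptors had 9 risen and 0 fallen of 20, led by LILRA5, an activating receptor (9.79, 10.75 and 11.54 in EVI1 ATRA against 4.99, 4.48 and 8.54 in EVI1 DMSO), with 5 risen without EVI1 ATRA 3 or DMSO 2. With the block 10 rose and 1 fell. These receptors are similar in sequence, and probe sets may be shared between them. C-type lectins and siglecs had 4 risen (17.4%) and 1 fallen (4.35%) of 23, with a median of 0.05. With the block 7 of them rose and 3 fell, against 16.3% and 19.4% of all genes. Integrins had 8 risen and 2 fallen of 25 (14 and 2 with the block), among them ITGAL (2.34), ITGA6 (2.31) and ITGB7 (1.51). CD47 (-0.54), the signal that restrains phagocytosis, fell. Chemokine and other G protein coupled receptors had 14 risen and 3 fallen of 37 (17 and 6 with the block), with a median of 0.11. The genes for phosphoinositide and SRC family signalling had 11 risen and 1 fallen of 33 (16 and 3 with the block), led by the SRC family kinase FGR (11.39, 11.56 and 12.07 against 8.03, 8.06 and 10.16). Other members were PIK3CG (1.39), the catalytic gamma subunit of PI 3-kinase, SKAP2 (1.26) and PLEK (1.15), all called in every fit.

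Lipid mediator genes rose in 7 of 21 cases (33.3%, against 7.45% of all genes) with 0 falls, or 10 and 3 with the block. Besides PTGES they included PTGS1, the constitutive cyclooxygenase that supplies its substrate (11.48, 11.91 and 11.99 in EVI1 ATRA against 9.19, 9.34 and 10.59 in EVI1 DMSO), PLAAT4, a retinoid-induced acyltransferase, ALOX5AP, which presents arachidonate to 5-lipoxygenase (1.41), and MGLL (1.41). The prostaglandin E receptors PTGER2 and PTGER4, counted with the G protein coupled receptors, fell (-0.57 each). PTGER2 was called in every fit, while PTGER4 was lost without EVI1 ATRA 1, DMSO 2 or DMSO 3 (0.0633, 0.114 and 0.0529). Lysosomal enzymes and proton pump subunits had 12 risen (31.6%) and 0 fallen of 38, led by SMPD1, acid sphingomyelinase (1.70). With the block 19 rose and 0 fell. In the fits without EVI1 ATRA 2, ATRA 3, DMSO 1 or DMSO 2 there were 4 to 6 risen. Cathepsins and other proteases had 8 risen and 0 fallen of 35 (11 and 4 with the block), with CTSS (1.04) called in every fit, and autophagy genes 9 risen and 0 fallen of 41 (14 and 3 with the block). The protease count was 1, 2, 3 and 3 without EVI1 ATRA 3, DMSO 1, ATRA 2 and DMSO 2, and the autophagy count 3, 4, 4 and 6. Cholesterol and fatty acid synthesis had 0 called of 27 by limma. With the block 4 were higher and 2 lower, against 16.3% and 19.4% of all genes. Without EVI1 ATRA 1 or ATRA 3, limma called 2 and 1 members of this list higher.

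**Figure D3:**
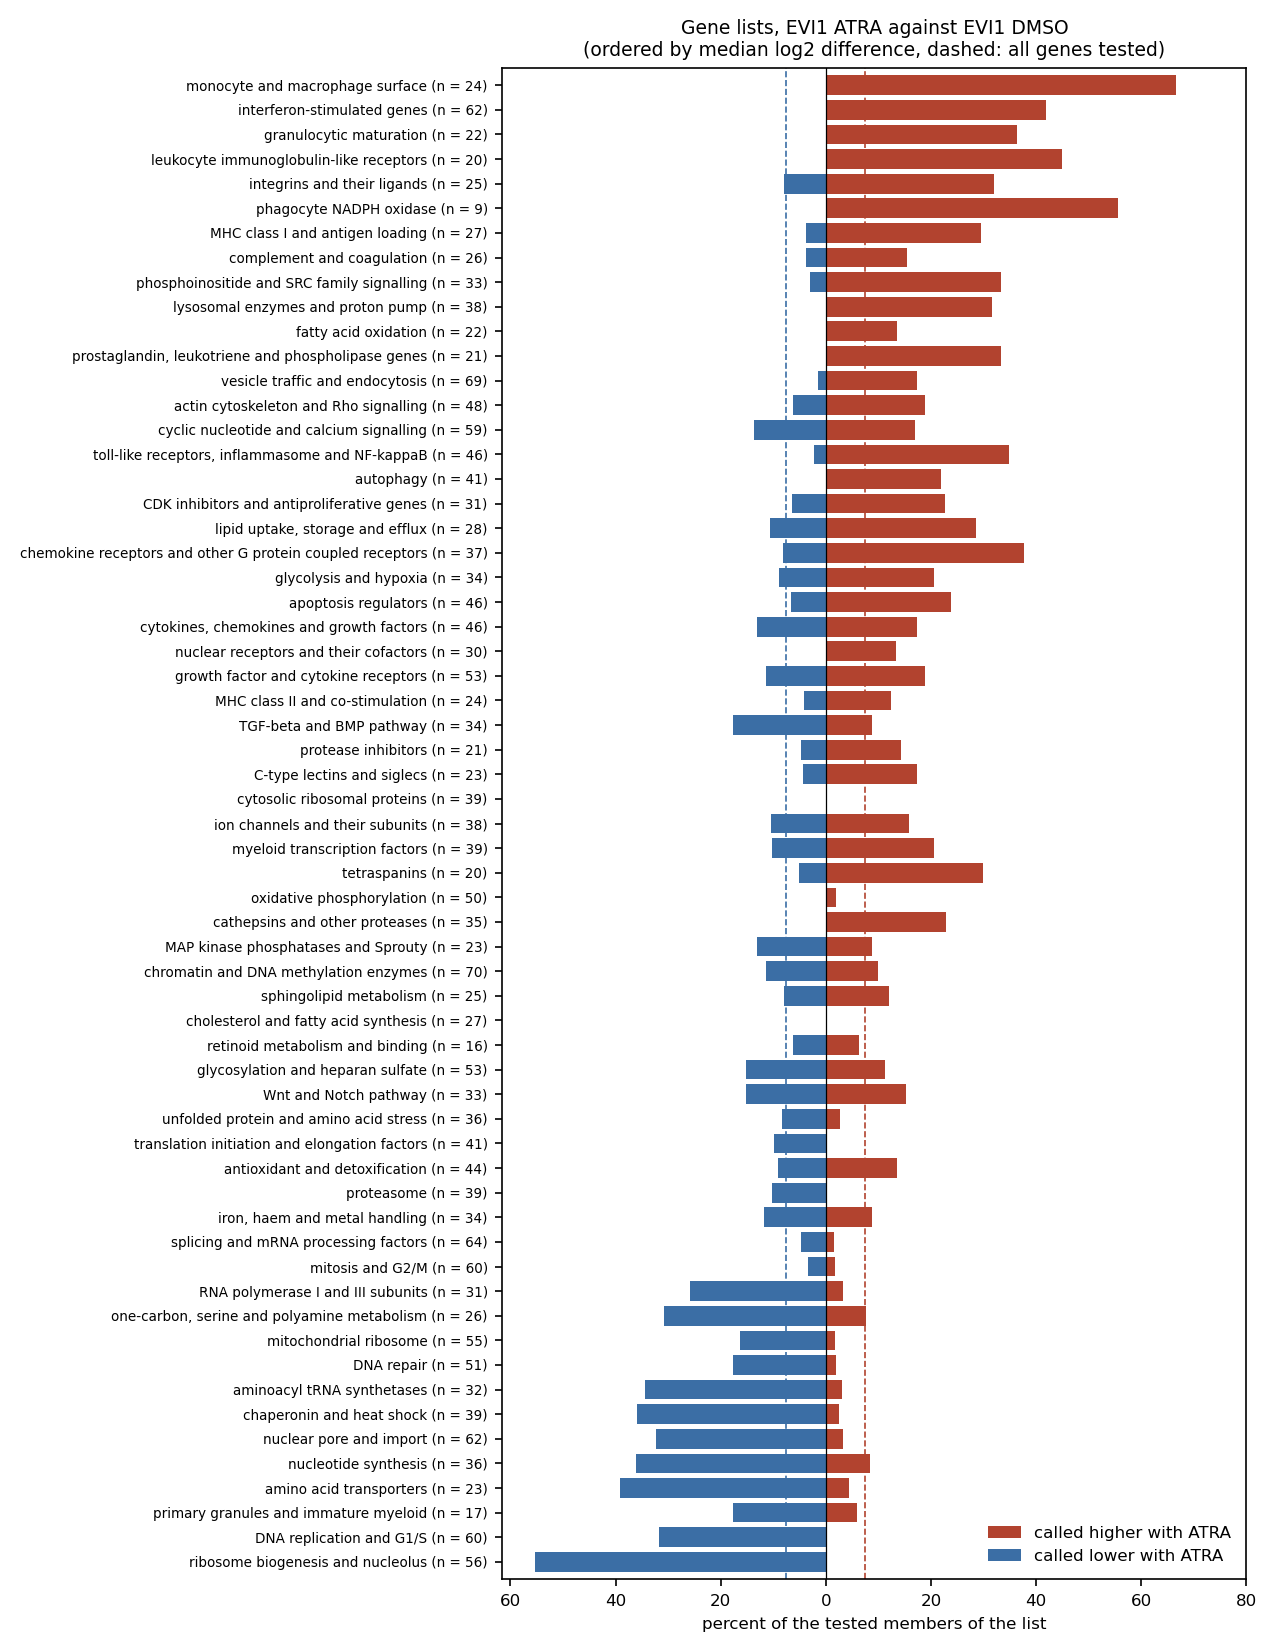
Percent of the tested members of each gene list called higher (right, red) and lower (left, blue) between EVI1 ATRA and EVI1 DMSO, with lists from top to bottom by falling median log2 difference and dashed lines at the shares over all genes tested. Monocyte and macrophage surface genes stand at the top with 66.7% higher, and ribosome biogenesis at the bottom with 55.4% lower.

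Interferon-stimulated genes had the most risen members of the lists counted, though not the largest share. Of 62 tested members 26 rose (41.9%, against 7.45% of all genes) and 0 fell, with a median of 0.63. With the block 44 rose and 3 fell, against 16.3% and 19.4% of all genes. The risen share was larger for monocyte and macrophage surface genes (66.7%), the NADPH oxidase (55.6%) and leukocyte immunoglobulin-like receptors (45.0%). OAS1, which makes the second messenger that activates RNase L, read 6.82, 8.80 and 9.35 in EVI1 ATRA against 5.08, 5.49 and 6.13 in EVI1 DMSO (2.76 ± 0.57, adjusted p = 0.0086). Its chromosomal neighbours OAS2 (1.55) and OAS3 (1.32) rose too. SLFN5 read 6.14, 7.72 and 8.71 against 5.51, 5.16 and 5.55 (2.12 ± 0.46), and the guanylate-binding GBP5 8.97, 9.56 and 9.08 against 6.83, 7.46 and 7.79 (1.84 ± 0.25). For OAS1 and SLFN5 ATRA replicate 1 lay well below the other ATRA arrays, and for GBP5 the 3 ATRA arrays lay close together. Of the regulators, IRF9 (1.65), IRF1 (1.56) and IRF7 (1.26) rose. Innate sensors rose in the same samples. The toll-like receptor, inflammasome and NF-kappaB list had 16 risen (34.8%) and 1 fallen (2.17%) of 46, or 21 and 5 with the block. It was led by the TLR4 partner LY96 (2.18), STING1 (1.81), AIM2 (1.76) and NLRC4 (1.35). TRAF3 (-0.94), a brake on non-canonical NF-kappaB, fell. LY96 was lost without EVI1 ATRA 2, ATRA 3 or DMSO 1 (0.103 to 0.13) and OAS2 in 4 of the 6 fits (adjusted p up to 0.181), and the sensor count was 9 without EVI1 ATRA 3 or DMSO 2. Without EVI1 ATRA 1 the interferon count was 39.

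Among the motifs searched, the PU.1 site and the interferon elements were more frequent in risen than in fallen promoters. The PU.1 site GAGGAAGT, the element of a master factor of myeloid cells, was present in 6.24% of risen, 2.46% of fallen and 2.74% of all tested promoters. The interferon-stimulated response element (ISRE, 2 copies of TTTC with any 2 bases between them) was present in 5.22%, 1.90% and 2.65%, the interferon gamma element GAS (TTCNNNGAA) in 8.05%, 4.91% and 6.23%, and the C/EBP site TTGCNNCAA in 2.38%, 1.34% and 1.42%. The median GC content was 63.3% in risen, 67.7% in fallen and 64.7% in all promoters, and its part in these shares was not tested. The stretches below are examples of the PU.1 site and the ISRE in risen genes, the element in capitals. They are not ranked by size of change. CLRN3 (2.81) and GPR82 (2.52) also hold a PU.1 site, rose more than TYROBP (1.90) and are not shown. Stretches with the GAS and C/EBP elements are not shown either. NCF1 holds both a PU.1 site and an ISRE.
NCF1, PU.1 site, chr7:74773949-74773986, + strand, reverse complement of the motif 47 to 40 bases before the start: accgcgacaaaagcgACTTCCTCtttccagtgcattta
TYROBP, PU.1 site, chr19:35908296-35908322, - strand, reverse complement 12 to 5 bases before the start: caccacccgcctcagACTTCCTCcttc
NCF1, ISRE, chr7:74773880-74773919, + strand, reverse complement 116 to 107 bases before the start: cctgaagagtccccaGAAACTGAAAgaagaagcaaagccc
MVP, ISRE, chr16:29820177-29820216, + strand, reverse complement 202 to 193 bases before the start: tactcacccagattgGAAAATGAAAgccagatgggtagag
CARINH, ISRE, chr5:132410881-132410920, + strand, same direction 33 to 24 bases before the start: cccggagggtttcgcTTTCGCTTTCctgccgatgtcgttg
MVP, the major vault protein, rose by 2.16 and the long non-coding RNA CARINH, which lies beside IRF1, by 1.94. A match is a description of letters, not evidence that a factor was bound.

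**Figure D4:**
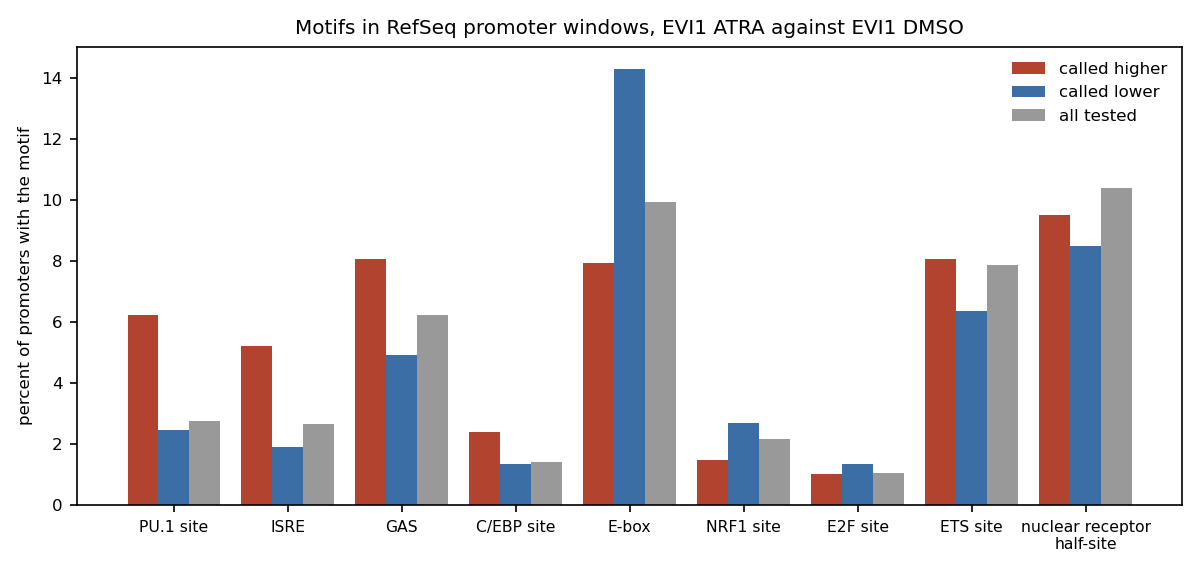
Percent of RefSeq promoter windows (vertical axis) that hold each motif among genes called higher with ATRA in EVI1 cells, called lower, and all tested with a window. The PU.1 site (6.24% against 2.74% of all) and the ISRE (5.22% against 2.65%) stand higher among risen genes, and the E-box (14.3% against 9.93%) among fallen genes.

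MYC and genes of ribosome production fell. MYC, a driver of cell growth, read 11.13, 10.82 and 10.22 in EVI1 ATRA against 12.43, 12.67 and 12.47 in EVI1 DMSO, a 3.48-fold fall (-1.80 ± 0.18, adjusted p = 0.000465), while its partner MAX differed by 0.03. In the list of ribosome biogenesis and nucleolar genes 31 of 56 (55.4%) fell and 0 rose, against 7.66% of all genes, with a median of -0.62 (51 fell with the block). NOP16 (-1.10), MRTO4 (-1.0) and NOLC1 (-0.98) fell most after MYC, which the list also holds. NOLC1 read 12.05, 11.57 and 11.30 in EVI1 ATRA against 12.70, 12.64 and 12.51 in EVI1 DMSO. MRTO4 was lost without EVI1 ATRA 2, ATRA 3, DMSO 1 or DMSO 2 (0.0657 to 0.146). The list count was 10 to 15 without EVI1 ATRA 2, ATRA 3, DMSO 1 or DMSO 2, and 46 without EVI1 ATRA 1. Cytosolic ribosomal proteins, the products that biogenesis assembles, did not follow: 0 of 39 were called with or without the block, and their median was 0.03.

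Polymerase subunits fell in the same samples. Of 31 subunits of RNA polymerases I and III 8 fell and 1 rose (16 and 1 with the block), or 13 fell without EVI1 ATRA 1 and 5 without ATRA 2, ATRA 3 or DMSO 1. The exception concerns a pair of paralogues that replace each other in polymerase III. POLR3G, the form associated with proliferating and stem cells, read 6.14, 5.46 and 5.40 in EVI1 ATRA against 7.76, 7.61 and 7.74 in EVI1 DMSO, a 4.10-fold fall (-2.04 ± 0.24, adjusted p = 0.000879). POLR3GL, the form of most differentiated tissues, read 10.16, 10.47 and 10.39 against 9.49, 9.85 and 9.86, a rise of 0.61 ± 0.14 (adjusted p = 0.0125). The 2 paralogues thus moved in opposite directions with no overlap of arrays. The rise of POLR3GL was lost without EVI1 ATRA 2, ATRA 3 or DMSO 1 (0.0523 to 0.0543).

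Supply lines for growth fell in the same arrays. Amino acid transporters had 9 fallen (39.1%, against 7.66% of all genes) and 1 risen of 23, or 12 and 2 with the block. Without EVI1 ATRA 2, ATRA 3, DMSO 1 and DMSO 2 in turn, 5, 3, 4 and 3 fell. SLC7A5, the large neutral amino acid exchanger, read 9.65, 9.17 and 7.98 in EVI1 ATRA against 11.23, 10.70 and 10.01 in EVI1 DMSO, and its heavy chain SLC3A2 (-0.92) fell, called in 3 of the 6 fits (adjusted p up to 0.0765). SLC7A7 (1.31), which also pairs with SLC3A2, rose. Nucleotide synthesis had 13 fallen and 3 risen of 36 (22 and 5 with the block), or 23 fallen without EVI1 ATRA 1 and 8, 7 and 8 without ATRA 2, ATRA 3 and DMSO 1, with CTPS1 (-1.08), PPAT (-1.06) and CAD (-0.99) lowest. The risen members SAMHD1 (1.74), UPP1 (1.12) and NT5C2 (0.63) are enzymes of nucleotide breakdown, and all 3 were called in every fit. The list of one-carbon, serine and polyamine metabolism had 8 fallen and 2 risen of 26 (14 and 2 with the block), or 4, 2, 3 and 2 fallen without EVI1 ATRA 2, ATRA 3, DMSO 1 and DMSO 2. SRM (-1.30) and ODC1 (-0.74), which make polyamines, were among those that fell, and the 2 that rose were SAT1 (1.37) and SMOX (1.17), which degrade them. Aminoacyl tRNA synthetases had 11 fallen of 32 (34.4%), or 22 with the block, and WARS1 (0.85), also an interferon-induced gene, as the member that rose. Without EVI1 ATRA 2, ATRA 3, DMSO 1 or DMSO 2 the synthetases had 4 or 5 fallen members. PSAT1 (-1.57), an enzyme of serine synthesis, fell. SLC7A5 was lost without EVI1 ATRA 3, DMSO 1 or DMSO 2 (0.0608 to 0.0803), SRM without EVI1 ATRA 3 (0.0572), and CTPS1 without EVI1 ATRA 2, ATRA 3 or DMSO 1 (0.0629 to 0.0751). PSAT1 was lost without EVI1 DMSO 2 (0.0514), and ODC1 and SLC7A7 in 3 of the 6 fits (up to 0.0691 and 0.0673).

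The E-box CACGTG, the sequence that MYC and other helix-loop-helix leucine zipper proteins can bind, was present in 14.3% of fallen, 7.94% of risen and 9.93% of all promoters. Examples from fallen genes are shown with the element in capitals, in the direction of the gene.
SLC7A5, chr16:87869617-87869652, - strand, 130 to 125 bases before the start: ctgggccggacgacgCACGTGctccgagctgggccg
FJX1, chr11:35618360-35618395, + strand, 85 to 80 bases before the start: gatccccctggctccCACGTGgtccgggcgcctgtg
KLF4, chr9:107489906-107489941, - strand, 157 to 152 bases before the start: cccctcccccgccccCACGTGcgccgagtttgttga
SRM, chr1:11060197-11060232, - strand, 199 to 194 bases before the start: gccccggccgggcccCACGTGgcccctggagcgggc
Fallen promoters were also the richest in GC, as given above.

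Other growth groups fell in smaller steps. Nuclear pore and import genes had 20 fallen and 2 risen of 62 (40 and 4 with the block), among them RCC1 (-0.87) and XPOT (-0.77), with 3 to 5 fallen without EVI1 ATRA 2, ATRA 3, DMSO 1 or DMSO 2, 11 without DMSO 3 and 34 without ATRA 1. The chaperonin and heat shock list had 14 fallen and 1 risen of 39 (24 and 3 with the block), including 5 subunits of the CCT ring, such as CCT2 (-0.39) and CCT4 (-0.34). CCT2 read 12.92, 12.77 and 12.67 in EVI1 ATRA against 13.31, 13.17 and 13.05 in EVI1 DMSO. Both lost their calls without EVI1 ATRA 2, ATRA 3, DMSO 1 or DMSO 2 (0.0781 to 0.132), and the list count was then 2 to 5. Mitochondrial ribosomal proteins had 9 fallen and 1 risen of 55 (28 and 1 with the block), with MRPS6 (0.93) as the member that rose. The fallen count was 4, 0, 0 and 3 without EVI1 ATRA 2, ATRA 3, DMSO 1 and DMSO 2, and 15 without ATRA 1. Oxidative phosphorylation had 1 risen (2.0%) and 0 fallen of 50. With the block 10 rose and 11 fell, against 16.3% and 19.4% of all genes.

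Cell cycle genes set the replicate numbers apart. In the DNA replication and G1/S list 19 of 60 fell and 0 rose, with MCM10 (-0.99), CDC45 (-0.97), POLD2 (-0.94) and POLE2 (-0.92) lowest, and with the block 45 fell and 1 rose. The median difference was -0.16 at number 1, -0.65 at number 2 and -0.82 at number 3. MCM10, which loads the replicative helicase cofactors, read 9.72, 8.73 and 8.74 in EVI1 ATRA against 10.13, 9.98 and 10.06 in EVI1 DMSO. The DMSO arrays were alike, and ATRA replicate 1 stood apart from the other ATRA arrays. The count of fallen members was 48 without EVI1 ATRA 1, and 1, 1, 2, 3 and 9 without EVI1 ATRA 2, ATRA 3, DMSO 1, DMSO 2 and DMSO 3. Mitosis and G2/M genes had 2 fallen (3.33%, against 7.66% of all genes) and 1 risen of 60, or 15 and 1 with the block. Their medians were 0.10, -0.22 and -0.48 at numbers 1, 2 and 3. DNA repair genes had 9 fallen (17.6%) and 1 risen of 51, or 22 and 3 with the block, with medians of -0.04, -0.35 and -0.53. Without EVI1 ATRA 1 both lists had 22 fallen members, and without ATRA 2, ATRA 3, DMSO 1 or DMSO 2 mitosis had 0 and repair 3 or 4. In ribosome biogenesis the medians were closer, at -0.52, -0.63 and -0.72. MCM10 was lost without EVI1 ATRA 2 or ATRA 3 (0.0543 and 0.0609), CDC45 in 5 of the 6 fits (up to 0.168), and POLD2 and POLE2 without EVI1 ATRA 2, ATRA 3, DMSO 1 or DMSO 2 (0.0581 to 0.156 and 0.0609 to 0.0975).

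**Figure D5:**
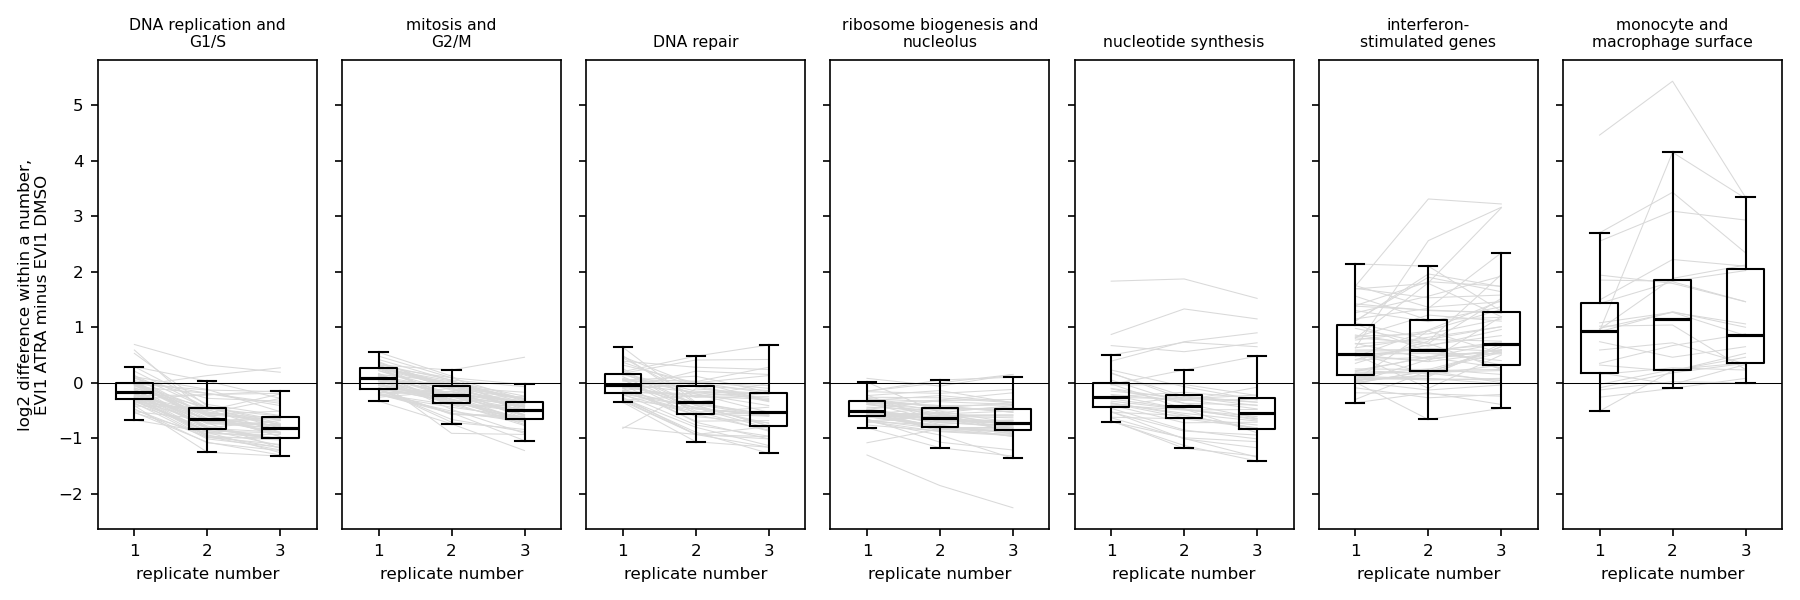
Log2 difference of EVI1 ATRA minus EVI1 DMSO within each replicate number (vertical axis), for the tested members of 7 lists, with 1 grey line a gene and boxes at the quartiles. In DNA replication the medians are -0.16, -0.65 and -0.82 at numbers 1, 2 and 3, while in ribosome biogenesis they are -0.52, -0.63 and -0.72.

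Of 31 tested genes that restrain the cell cycle 7 rose (22.6%, against 7.45% of all genes) and 2 fell (6.45%, against 7.66%). CDKN1A, the p21 inhibitor of cyclin-dependent kinases, read 10.31, 10.70 and 10.91 in EVI1 ATRA against 8.75, 8.99 and 9.72 in EVI1 DMSO (1.49 ± 0.24, adjusted p = 0.00262), called in every fit. SESN3 (1.65), CCNG2 (1.25) and BTG1 (0.90) rose as well and were each lost in 3 or 4 of the 6 fits (adjusted p up to 0.0645, 0.0985 and 0.107). The list count was 1 to 3 without EVI1 ATRA 2, ATRA 3, DMSO 1 or DMSO 2. Of 46 regulators of apoptosis 11 rose (23.9%) and 3 fell (6.52%) (17 and 9 with the block, and 5 or 6 risen without EVI1 ATRA 3, DMSO 1 or DMSO 2), among them DAPK1 (1.46), DAPK2 (1.18) and CASP10 (0.83), all called in every fit. The list holds genes that promote and genes that restrain cell death.

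Among genes of glucose use, 2 hexokinases went in opposite directions. HK3, a hexokinase of myeloid cells, read 9.05, 9.27 and 10.08 in EVI1 ATRA against 5.81, 6.42 and 7.69 in EVI1 DMSO (2.83 ± 0.45, adjusted p = 0.00264), while HK2, the form of growing cells, read 9.73, 9.45 and 9.59 against 10.89, 10.78 and 10.57 (-1.16 ± 0.13, adjusted p = 0.000644). SLC2A1 (1.08), the glucose transporter GLUT1, and PFKFB3 (1.00) rose, and VEGFA (-0.93) and LDHA (-0.34) fell. Over the glycolysis and hypoxia list 7 rose (20.6%, against 7.45% of all genes) and 3 fell (8.82%, against 7.66%) of 34 (12 and 5 with the block), and 4 rose without EVI1 ATRA 2, ATRA 3, DMSO 1 or DMSO 2. LDHA was called only without EVI1 ATRA 1 among the fits that left out an array, with an adjusted p up to 0.171 in the others. DDIT4, a stress-induced inhibitor of mTORC1, read 13.04, 13.19 and 13.18 in EVI1 ATRA against 10.30, 10.35 and 11.82 in EVI1 DMSO (2.31 ± 0.34).

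Some called genes lie side by side, and the argonaute family split. AGO1, AGO3 and AGO4, which lie side by side on chromosome 1 and load small RNAs, rose. AGO1 read 10.44, 10.78 and 10.90 in EVI1 ATRA against 8.57, 8.70 and 9.49 in EVI1 DMSO (1.79 ± 0.32, adjusted p = 0.00428), AGO4 read 10.25, 10.43 and 10.50 against 8.72, 9.10 and 9.72 (1.21 ± 0.25), and AGO3 rose by 0.53. AGO2, the family member that cuts its targets and lies on another chromosome, read 6.14, 5.98 and 6.09 against 7.07, 6.97 and 7.05 (-0.96 ± 0.09, adjusted p = 0.000305). The groups were apart for all 4 genes. AGO3 was called in 2 of the 6 fits (adjusted p up to 0.126) and the other 3 in all. DICER1, which cuts the precursors, differed by 0.01.

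Runs of neighbours were defined as adjacent genes called in the same direction, were picked after their values were seen, and are given as a description with no count of how many would arise by chance. The longest run of risen neighbours held 6 genes on chromosome 7, from CCL26 and CCL24 through RHBDD2 and POR to TMEM120A and STYXL1, with differences from 0.70 to 2.27. CCL24, the eosinophil chemokine eotaxin-2, read 6.03, 7.67 and 9.15 in EVI1 ATRA against 5.55, 5.41 and 5.61 in EVI1 DMSO, so that its difference was 0.48 at number 1 and 3.54 at number 3, and it was lost without EVI1 ATRA 2, DMSO 1 or DMSO 2 (0.0631 to 0.0688). POR, the electron donor of cytochromes P450, rose by 1.61 in every fit. CCR1 (2.71), CCR2 (2.86) and CCRL2 (2.09) form a run on chromosome 3. GPRC5C, CD300A, CD300LB and CD300C form one on chromosome 17 (0.95 to 2.82), OAS1, OAS3 and OAS2 one on chromosome 12 (1.32 to 2.76), TREM2, TREML2 and TREM1 one on chromosome 6 (0.70 to 1.57), and CFLAR, CASP10 and CASP8 one on chromosome 2 (0.70 to 0.83). Of these, GPRC5C, TREM1 and CFLAR were called in 3 of the 6 fits (adjusted p up to 0.0592, 0.114 and 0.104), and CCL26 in 2 (0.0734). The aldo-keto reductases AKR1C1, AKR1C2 and AKR1C3 on chromosome 10 rose by 0.79 to 2.50, and their sequences are so alike that probe sets may read more than 1 of them. AKR1C2 was called in 1 of the 6 fits (up to 0.188). Among the fallen runs were PPRC1, NOLC1 and ELOVL3 on chromosome 10 (-0.98 to -0.81), of which PPRC1 and ELOVL3 were called in 1 and 2 fits (up to 0.171 and 0.173).

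Cytokines, chemokines and growth factors had 8 risen (17.4%) and 6 fallen (13%) of 46 (15 and 11 with the block), and 2 to 5 risen without EVI1 ATRA 2, ATRA 3, DMSO 1 or DMSO 2. Growth factor and cytokine receptors had 10 risen (18.9%) and 6 fallen (11.3%) of 53 (14 and 11 with the block), or 5 risen without EVI1 ATRA 3 or DMSO 1. HBEGF, a ligand of the EGF receptor, read 10.07, 11.41 and 11.63 in EVI1 ATRA against 7.86, 7.99 and 8.55 in EVI1 DMSO (2.90 ± 0.35). GDF15, a stress cytokine, read 9.81, 10.79 and 13.26 in EVI1 ATRA against 5.56, 6.30 and 10.21 in EVI1 DMSO, with overlapping arrays and the call lost without EVI1 ATRA 2, ATRA 3, DMSO 1 or DMSO 2 (0.0765 to 0.162). MERTK (1.80), the receptor by which macrophages take up dying cells, rose, and its relative TYRO3 (-1.0) fell. CCL2 read 9.05, 11.38 and 11.28 in EVI1 ATRA against 9.06, 10.00 and 8.54 in EVI1 DMSO and did not pass (adjusted p = 0.183). At number 1 CCL2 differed by -0.01 and at number 3 by 2.74. TYRO3 was lost without EVI1 ATRA 2, ATRA 3, DMSO 1 or DMSO 2 (0.0709 to 0.13). The Notch ligand JAG1 (-1.24) fell and the receptor NOTCH2 (1.04) rose, both in every fit.

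By its title the study is about a stronger ATRA response with EVI1, and the difference between the ATRA effects was tested as an interaction. For the interaction, limma called 0 genes (lowest adjusted p 0.998), with 362 at an unadjusted p under 0.05 (2.57% of those tested). With the block it again called 0 (lowest adjusted p 0.346), with 1846 at an unadjusted p under 0.05 (13.1%). If no gene differed, a share of about 0.05 would be expected at that threshold. The share lay below this in the fit that leaves the pairing out and above it with the block. Genes vary together, so neither share is a test. In vector cells 496 genes were called (3.52%), and 2818 with the block. Of the 1049 genes risen in EVI1 cells, 1034 had a positive difference in vector cells, with a median of 0.46, and 246 were called there. Of the 1078 fallen, 1070 had a negative one, with a median of -0.38, and 190 were called. These counts rest on separate samples, but the genes were chosen by the EVI1 arrays, which favours larger values there. In EVI1 and vector cells P2RY13 differed by 3.56 and 0.86, EGR3 by 3.62 and 0.40, CCL24 by 2.09 and 0.51, and DDC, the aromatic amino acid decarboxylase, by -1.24 and -0.24. Not 1 of these 4 differences between the ATRA effects passed. EGR3 read 3.71, 3.88 and 3.69 in vector DMSO, each under the lower quartile of its array, where the size of a rise is compressed. Without EVI1 ATRA 1, limma called 1 gene for the interaction, DDC (-1.19, adjusted p = 0.0227). With the block and without the arrays of number 3 it also called 1, GDF15 (2.71, adjusted p = 0.00508), which differed by 3.93 in EVI1 cells and 1.69 in vector cells over all arrays.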

How the data were processed

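RNA from U937 cells was measured on Affymetrix expression arrays, with 250 ng of RNA an array per the labels' protocols. Per the submitters' processing notes, the authors used Affymetrix Expression Console 1.3 and RMA, and the deposited values are log2 signals. RMA equalises the distributions of the arrays, so a change of total RNA per cell is not visible. Precision is limited by how few arrays there are.

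Of 54675 probe sets, 41097 had 1 gene symbol in the platform annotation, and 41043 of these were found in RefSeq, which changed 0 symbols. For each of 19775 genes the probe set of highest mean signal was kept, and those with a log2 signal of at least 5 on 3 arrays were tested. Linear models from limma 3.58.1 (R 4.3.3), moderated with eBayes, were fitted to 12 arrays in 4 groups, with 8 residual degrees of freedom. Adjusted p values of genes are Benjamini-Hochberg over 14080 genes, and called means an adjusted p under 0.05. For calls of MECOM probe sets and of probe sets without exactly 1 symbol, the adjustment ran over all 54675 probe sets. The fits were also run on simulated data with independent noise and no shared effect of a replicate number. That run cannot show how they perform where same-numbered arrays deviate together.

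The labels number the replicates, and same-numbered arrays deviated together from their group means in every pair (r from 0.408 to 0.704, against -0.56 to 0.164 between different numbers), so the numbers were taken as pairs. The fit without the block was the main one, and counts with it are given beside those they move most. Unless stated otherwise, SE, adjusted p values and lost calls come from fits without the block, which leave the pairing out. The 157 named genes that lost a call in such a fit all passed with the block and every array. Other alternatives were centring, quantile normalization, the filter, the choice of probe set, eBayes with trend, the EVI1 arrays alone and leaving out each array.

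The comparison, gene lists and motifs were chosen with earlier results of these data known. Named were the 25 largest rises and falls among called genes whose arrays did not overlap, the 10 smallest adjusted p, the called list members with the largest differences and the 10 called genes of highest level. Other genes (such as the argonautes, the neighbour runs, CEBPB, RUNX2, CEBPA, MAX, BATF2, MVP and CARINH) were chosen after their values were seen.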

Additional observations from a re-analysis of the deposited data

Results flagged for a closer look

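In 4 of the 384 genes that the naming rules picked, of which 2 were called in EVI1 cells, every replicate number moved one way in EVI1 cells and the other way in vector cells. The same held for 246 of all 14080 tested genes, 7 of them called, so the pattern is not particular to these 4. CEMIP2, a cell surface protein that degrades hyaluronan, differed by 0.56, 0.29 and 0.70 at numbers 1, 2 and 3 in EVI1 cells, against -0.22, -0.38 and -0.38 in vector cells. The difference between the effects was 0.84 ± 0.22 (SE), which did not pass in limma (adjusted p = 0.998, or 0.346 with the replicate block). MTERF1, a factor of mitochondrial transcription, differed by 0.34, 0.30 and 0.54 in EVI1 cells, against -0.03, -0.18 and -0.36 in vector cells. The difference between its effects was 0.58 ± 0.14, with the same adjusted p values. RARA, the retinoic acid receptor alpha, was not called in EVI1 cells. It differed by 0.11, 0.38 and 0.74 there, against -0.28, -0.29 and -0.20 in vector cells, and the difference between its effects was 0.67 ± 0.22, again at 0.998 and 0.346. CYP26B1, a retinoic acid hydroxylase, was not called either and differed by -0.11, -0.18 and -0.12 in EVI1 cells, against 0.20, 0.12 and 0.10 in vector cells (-0.28 ± 0.25, adjusted p = 0.998, or 0.59 with the block).

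Probe sets without exactly 1 gene symbol entered no comparison of the report. Of the 5729 among them above the signal limit, limma called 129 higher (2.25%) and 140 lower (2.44%) between EVI1 ATRA and EVI1 DMSO, or 443 and 445 with the replicate block. At least 2-fold were 45 and 30, and the largest log2 difference was 3.72. Groups of 3 arrays are too small for a test of single outlying arrays.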

How the results depend on the processing

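No gene called between EVI1 ATRA and EVI1 DMSO was called in the opposite direction under any of the alternatives run. With the replicate block 2298 genes were higher and 2725 lower, against 1049 and 1078 without it, and in vector cells 2818 were called, against 496. The block changed no other call of a gene named as called. With the 6 EVI1 arrays alone 399 genes were higher and 336 lower, in a fit with fewer arrays to estimate the spread. Leaving out 1 EVI1 array gave 476 to 1429 higher, 421 to 1795 lower, 381 to 632 in vector cells and 0 to 1 for the interaction. Fits chosen after seeing the data were the EVI1 arrays alone with the block (2009 higher, 2178 lower) and the block without number 1 (1822, 2335 and 1168 in vector cells), without number 2 (1221, 1321 and 445) or without number 3 (1597, 1753 and 1893, and 1 for the interaction). Centring, quantile normalization, the filters, the choice of probe set and eBayes with trend gave 866 to 1116 higher and 873 to 1227 lower. NUP214, called higher at 0.34, was -0.04 with the mean of its probe sets and -0.35 with the most variable one; the cause was not tested. Signals below the array lower quartile limit the size of a measurable fall.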

Other observations

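Of 20 tested tetraspanins, organisers of membrane domains, 6 rose (30.0%, against 7.45% of all genes) and 1 fell (5.0%, against 7.66%) between EVI1 ATRA and EVI1 DMSO, or 8 and 4 with the block. TSPAN31 (1.72), CD81 (1.43) and CD53 (1.42) had the largest rises and were called in every fit. Genes of glycosylation and heparan sulfate had 6 risen (11.3%) and 8 fallen (15.1%) of 53, or 9 and 15 with the block, and 4 or 5 fallen without EVI1 ATRA 2, ATRA 3, DMSO 1 or DMSO 2. HS6ST1 (-1.05) and HS3ST2 (-2.47), which add sulfate to heparan sulfate chains, fell in every fit.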
